A study of Mus musculus with 25 samples.

Results

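Interferon-induced and antigen processing genes were examined in mouse lung as a group of 37 genes listed by symbol. A probe set carrying only that symbol was found for 35 of the 37, and the one with the highest mean log2(signal + 16) over all 25 arrays stood for the gene. Isg15, a ubiquitin-like modifier, shares its probe set with another symbol, and Ifi44 was not found under its symbol, so both are not analysed here. Of the 35 genes, 34 passed the filter on dim genes and were among the 12937 genes tested. The exception was Dhx58, an RNA helicase that regulates viral RNA sensing, whose levels are given without a test.

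All 25 mice were wildtype C57BL/6J females, 14 to 17 weeks old and 20 to 25 g in weight, and 1 array was made from the total lung RNA of each. The 8 groups were 4 mice given PBS (control), 3 given (S)-FTY-phosphonate (fTyS), 3 given SEW-2871 (SEW), 3 given FTY720 (FTY), 3 given radiation only, and 3 each given radiation with fTyS, SEW or FTY. Each compound was injected into the peritoneum at 0.1 mg/kg, 2 times a week, and radiation was 1 thoracic dose of 25 Gy. The time from irradiation or first injection to collection is not given in the sources used here, nor is whether irradiated mice without a compound received PBS. The design text counts mice per group, and that is the basis for taking the arrays as separate animals. FTY720 is a sphingosine analogue that cells phosphorylate into a ligand of sphingosine-1-phosphate receptors. The compound labelled fTyS carries a phosphonate in place of that phosphate, and SEW-2871 is a receptor agonist that is not built on sphingosine.

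Interferons bind cell surface receptors whose kinases activate STAT proteins. Type I interferons act mainly through a complex holding Stat2 and Irf9 that binds the interferon-stimulated response element and drives antiviral effectors such as the Ifit, Oas and Mx genes. Interferon gamma acts mainly at gamma-activated sites and through Irf1, and is best known for inducing GTPases that attack intracellular pathogens, immunoproteasome subunits and peptide transporters that feed MHC class I.

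The lung identity of the samples was clear from 10 defining markers (surfactant, alveolar epithelial, club cell and endothelial genes), whose mean log2(signal + 16) lay between 12.47 and 12.76 on the 25 arrays. Array medians of the deposited signal ran from 118 to 129.6. The array labelled fTyS replicate 3 stood apart for the genes described here, and results are given with and without it. On control replicate 4, the mean of 9 p53 target genes was 10.43, against 9.31 to 9.52 on the other control arrays and 10.28 to 10.46 on the irradiated arrays, so the library labelled control replicate 4 resembled irradiated lung in that list. FTY replicate 3 had a T cell marker mean of 9.74, against 6.93 to 7.82 on the other 24 arrays. In whole lung, fewer cells of a type and less RNA per cell cannot be told apart.

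The promoters of the members were searched for 2 motifs of the interferon response, and the windows of 7 members named in the results are shown. Which arm of the response a gene answers to was not tested and cannot be read from a match or its absence. A window holds 250 bases before to 50 bases after the start of transcription in RefSeq (GRCm38.p6), and 29 of the 37 members had at least 1. The core of the interferon-stimulated response element, searched as GAAANNGAA on both strands, occurred in a window of 15 of these 29 genes (51.7%), against 9.76% of the 27025 genes in the table. The core of the gamma-activated site, searched as TTCNNNGAA on both strands, occurred in 7 of 29 (24.1%), against 9.55% of all genes. By role, the first motif was found in 4 of 5 GTPases, 7 of 13 antiviral effectors, 3 of 3 sensors and regulators, 1 of 4 signalling factors and 0 of 4 antigen processing genes. The second motif was found in 1 of 5 GTPases, 4 of 13 effectors, 0 of 3 sensors and regulators, 1 of 4 signalling factors and 1 of 4 antigen processing genes, and neither split was tested. The 2 motifs can overlap where a TTC run meets a GAA run, and a match describes letters only. In the sequences that follow, written 5′ to 3′ on the gene's strand, capitals mark matches to either motif.
Igtp (chr11:58199306-58199605, plus strand): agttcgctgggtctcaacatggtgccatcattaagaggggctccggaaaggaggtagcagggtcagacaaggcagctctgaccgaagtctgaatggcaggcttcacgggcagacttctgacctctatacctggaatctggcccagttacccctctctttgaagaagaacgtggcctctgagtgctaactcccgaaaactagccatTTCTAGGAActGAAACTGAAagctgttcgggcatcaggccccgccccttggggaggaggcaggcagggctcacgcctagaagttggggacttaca
Gbp2 (chr3:142620413-142620712, plus strand): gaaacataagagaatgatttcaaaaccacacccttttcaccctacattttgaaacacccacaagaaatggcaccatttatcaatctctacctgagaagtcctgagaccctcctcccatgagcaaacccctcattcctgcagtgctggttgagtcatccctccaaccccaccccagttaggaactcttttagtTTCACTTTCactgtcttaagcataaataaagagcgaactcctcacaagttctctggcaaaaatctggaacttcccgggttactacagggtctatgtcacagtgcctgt
Gbp3 (chr3:142559794-142560093, plus strand): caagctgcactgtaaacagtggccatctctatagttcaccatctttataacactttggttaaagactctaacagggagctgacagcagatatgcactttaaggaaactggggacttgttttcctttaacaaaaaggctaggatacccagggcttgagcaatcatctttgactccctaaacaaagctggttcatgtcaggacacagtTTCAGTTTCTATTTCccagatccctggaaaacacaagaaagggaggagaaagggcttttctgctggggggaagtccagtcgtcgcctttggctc
Tap1 (chr17:34187306-34187605, plus strand): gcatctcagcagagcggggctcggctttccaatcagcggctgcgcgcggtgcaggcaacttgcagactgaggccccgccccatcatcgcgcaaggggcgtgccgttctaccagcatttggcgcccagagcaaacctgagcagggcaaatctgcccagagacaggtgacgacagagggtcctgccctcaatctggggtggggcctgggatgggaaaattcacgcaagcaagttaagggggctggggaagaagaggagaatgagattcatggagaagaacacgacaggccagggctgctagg
Ifit3 (chr19:34583279-34583578, plus strand): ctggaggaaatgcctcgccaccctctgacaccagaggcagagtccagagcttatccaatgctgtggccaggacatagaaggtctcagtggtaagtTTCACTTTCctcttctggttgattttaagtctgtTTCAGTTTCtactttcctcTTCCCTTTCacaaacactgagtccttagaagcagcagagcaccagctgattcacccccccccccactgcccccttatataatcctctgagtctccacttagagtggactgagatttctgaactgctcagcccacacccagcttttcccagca
Eif2ak2 (chr17:78882523-78882822, minus strand): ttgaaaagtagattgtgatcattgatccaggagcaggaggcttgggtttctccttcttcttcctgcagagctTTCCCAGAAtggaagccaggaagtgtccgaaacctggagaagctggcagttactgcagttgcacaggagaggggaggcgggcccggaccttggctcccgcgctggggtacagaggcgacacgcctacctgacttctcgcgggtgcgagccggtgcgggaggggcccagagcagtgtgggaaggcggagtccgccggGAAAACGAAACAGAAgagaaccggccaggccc
Trim25 (chr11:88999153-88999452, plus strand): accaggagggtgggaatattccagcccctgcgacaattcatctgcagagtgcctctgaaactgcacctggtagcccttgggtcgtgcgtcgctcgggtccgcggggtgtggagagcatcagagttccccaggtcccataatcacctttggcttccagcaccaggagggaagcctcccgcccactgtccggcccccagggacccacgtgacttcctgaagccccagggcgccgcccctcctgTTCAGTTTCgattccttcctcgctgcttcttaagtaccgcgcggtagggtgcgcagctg
Igtp, Gbp2, Gbp3 and Tap1 had the largest differences on the array labelled fTyS replicate 3 and Trim25 had almost none, as described next. Ifit3 and Eif2ak2 were added after their values were seen, because they were called in more than 1 comparison. The Ifit3 window held 3 matches to the response element core, the Gbp3 window shown 2 that overlap (a second Gbp3 window in the table, not shown, holds neither motif), and the Tap1 window none of either motif. The Igtp window held 1 match to each motif, side by side. Tap1 and Psmb9 start in opposite directions from 1 stretch of DNA, and 275 bases of the Tap1 window are the Psmb9 window read on the other strand.

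The array labelled fTyS replicate 3 was the highest of all 25 arrays for 21 of the 35 members (60%), whereas it was the highest for 2.58% of all genes tested. The next arrays in this count were radiation with fTyS replicate 2 with 5 members and radiation with SEW replicate 2 with 4. Its median log2 difference from the mean of fTyS replicates 1 and 2 was 0.86 over the 35 members and -0.04 over all genes tested. The members were chosen with earlier results of these data known, so the counts describe this array and are not independent support. A single animal carries the difference, so it has no replicate and no test. The plot of the 25 arrays by gene shows it as 1 dark column.

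**Figure D1:**
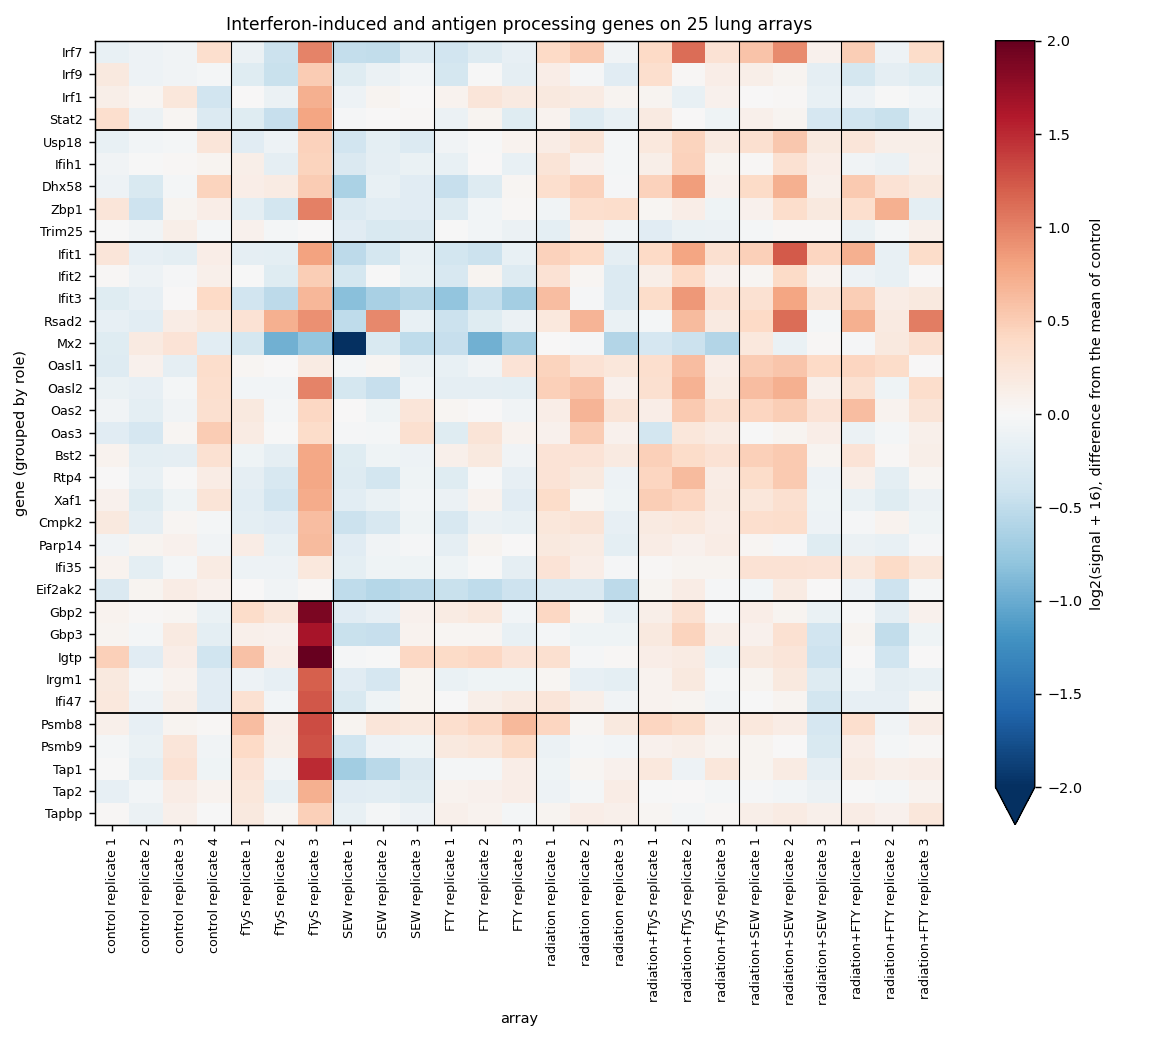
Log2(signal + 16) of 35 members (vertical axis, grouped by role) on 25 arrays (horizontal axis, grouped by treatment), each as the difference from the mean of the 4 control arrays, from blue (lower) to red (higher). The column of fTyS replicate 3 is red for nearly all members and darkest for the GTPases, whereas Trim25, Eif2ak2 and Mx2 are not raised there.

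The GTPases, which assemble on the membranes around intracellular pathogens, differed most. Igtp gave signals of 1822, 1327 and 4822 on the 3 fTyS arrays in the order of their labels, and 1689, 1031, 1325 and 910.1 on the 4 control arrays. Gbp2, a guanylate-binding protein, gave 1625, 1482 and 4696, and Gbp3, its relative, gave 1174, 1153 and 3446. Each was about 3-fold above its own group on the third array: Igtp 3.08-fold, Gbp2 3.01-fold and Gbp3 2.94-fold on the log2(signal + 16) scale. All 5 GTPases had their highest value of the 25 arrays there, with Irgm1 at a log2 difference of 1.34 and Ifi47 at 1.12.

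All 5 antigen processing genes also had their highest value on that array. Tap1, a subunit of the peptide transporter into the endoplasmic reticulum, gave signals of 694, 546 and 1636, a log2 difference of 1.39. The other 4 differed by 0.34 to 1.01: the immunoproteasome subunits Psmb8 and Psmb9, the second transporter subunit Tap2, and Tapbp, the tapasin that bridges the transporter to class I molecules. Their median over the 5 genes was 0.93. The first fTyS array was also above the second for these genes, as in Psmb9 with 1376, 1129 and 2534, while the 4 control arrays gave 1008, 946, 1238 and 984.

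Of the 4 signalling factors, 3 were highest on that array, and their median difference was 0.996. Stat2, a component of the type I interferon complex, gave 147, 124 and 316, a log2 difference of 1.13. Irf7, the factor that amplifies type I interferon transcription, gave 359, 284 and 796, a difference of 1.27, but radiation with fTyS replicate 2 was higher still at 865. Irf1 and Irf9 differed by 0.77 and 0.86.

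Antiviral effectors and sensors differed less and unevenly. The median difference was 0.62 over 16 effectors, with 7 of them highest on that array, and 0.47 over 5 sensors and regulators, with 1 highest. Zbp1, a sensor of Z-form nucleic acid, gave 178, 157 and 431, a log2 difference of 1.29. Ifit3, an antiviral effector of the Ifit genes, gave 789, 715 and 1648, a difference of 1.12. At the other end, Mx2, a dynamin-like antiviral GTPase, differed by -0.12, Trim25, a ubiquitin ligase of RNA sensing, by -0.02, Eif2ak2, the kinase PKR that stops translation, by 0.06, and Oasl1 by 0.15. Dhx58 was at a log2 level of 6.79 against 6.44.

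**Figure D2:**
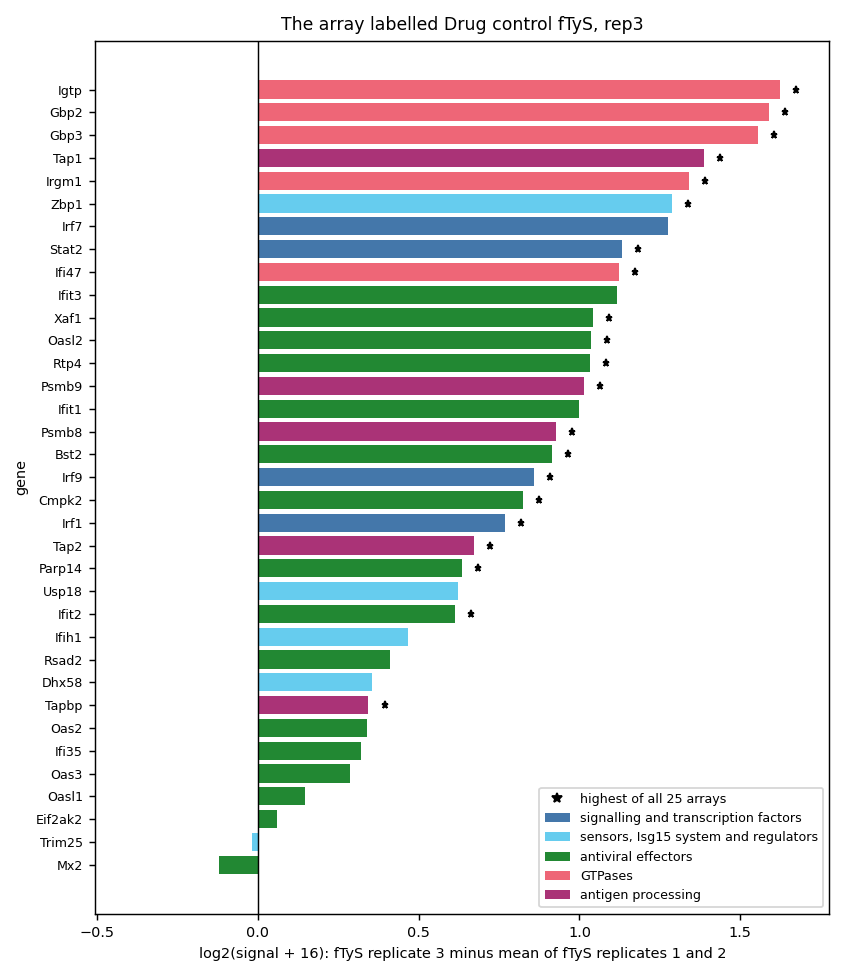
Difference in log2(signal + 16) between fTyS replicate 3 and the mean of fTyS replicates 1 and 2 (horizontal axis) for 35 members (vertical axis), coloured by role, with a star where that array was the highest of all 25. The bars run from -0.12 (Mx2) to 1.62 (Igtp), and GTPases fill the top 3 places.

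Some related genes outside the group were high on the array as well. Their lists were also chosen with earlier results of these data known. Of 39 other interferon-induced genes tested, 20 had their highest value of the 25 arrays there (median log2 difference from the other 2 fTyS arrays 0.44), as did 9 of 14 other class I presentation genes (0.20), 4 of 12 upstream sensing genes (0.24) and 0 of 16 receptor and JAK-STAT genes (0.12). Cxcl10 and Cxcl9, chemokines that attract T cells and natural killer cells, differed by 2.58 and 2.30 in log2, and Gbp6, Iigp1, Cd274 and Irgm2 by 1.35 to 1.76. Ifng, the gene of interferon gamma itself, was below the filter, but its level there was 6.64 against a mean of 5.89 on the other 2 fTyS arrays and at most 6.22 on the other 24 arrays. The other interferons with a value, all below the filter, did not move as 1 group: Ifna1 differed by 0.60 and Ifnb1 by 0.11. In the list of ligands only the interleukins Il15 and Il18, which are not interferons, were tested. They differed by -0.26 and -0.33.

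Cell type markers also differed between that array and the other 2 of its group. The natural killer markers Gzmb and Gzma differed by 1.33 and 1.29, and the median over 6 such markers was 0.80, with 1 of them highest there. The mean of 6 natural killer markers was 8.43 on that array against 7.75 and 7.64 on the other 2, and reached 8.67 on control replicate 1. The mean of 5 T cell markers was 7.29 against 7.82 and 7.53, and the median differences of 7 neutrophil and 9 monocyte and macrophage markers were 0.05 and 0.21. The largest shifts were in markers of other cells. The mean of 7 B cell markers was 8.15 against 9.11 and 9.14, with all 7 lower (median -1.17), and the mean of 3 adipocyte markers was 9.74 against 12.06 and 11.60 (median -2.36). The mean of 8 skeletal and cardiac muscle markers was 10.79 against 9.56 and 12.44 (median -0.47, with Tnni3 at -2.35 and Acta1 at 1.74). The 2 arrays that serve as the baseline were thus higher than that array in B cell and adipocyte markers and differed from each other in muscle markers. The part of these cells in the difference was not tested.

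Between the groups, the mean log2 level over the 35 members spanned less than this single array did. It was 9.37 ± 0.081 (SD, n = 4) in control, 9.16 ± 0.14 (SD, n = 3) in SEW, 9.29 ± 0.052 (SD, n = 3) in FTY and 9.59 ± 0.47 (SD, n = 3) in fTyS, which becomes 9.32 over the 2 arrays without replicate 3. With radiation it was 9.46 ± 0.13 alone, 9.55 ± 0.11 with fTyS, 9.54 ± 0.18 with SEW and 9.43 ± 0.084 with FTY (SD, n = 3 each). For 27 of the 35 members the largest within-group SD lay in the fTyS group. SEW replicate 1 was the lowest of the 25 arrays for 14 members, against 8.70% of all genes.

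**Figure D3:**
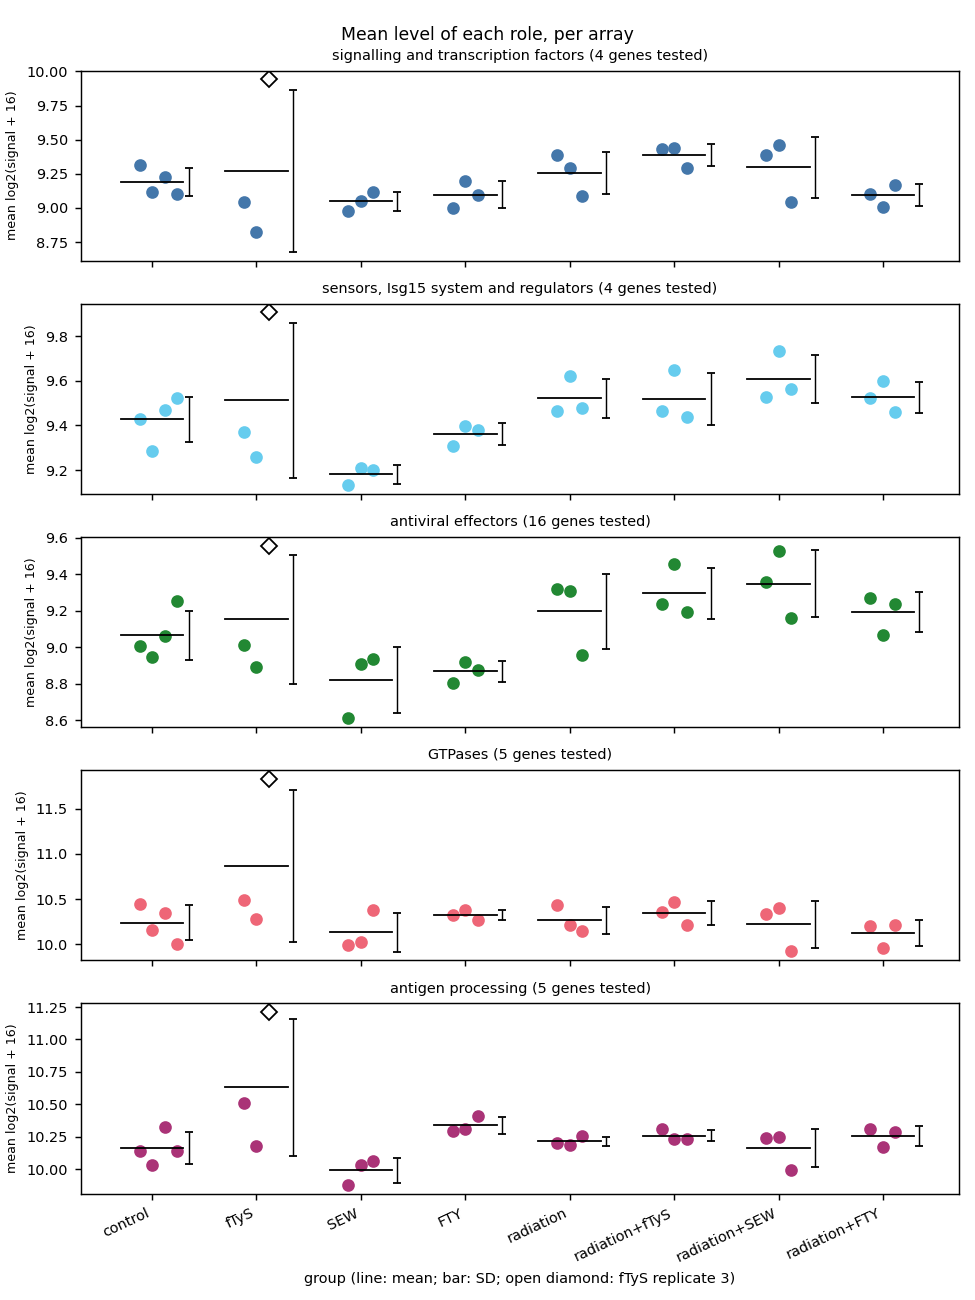
Mean log2(signal + 16) of the tested members of each role (vertical axes, 1 panel per role) for every array, by group (horizontal axis), with lines for group means and bars for SD. The open diamond, fTyS replicate 3, lies above the other 24 arrays in all 5 panels, and the SEW arrays lie lowest among the groups for sensors and regulators.

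After radiation alone, 1 of the 34 members tested with limma was called lower than in control lung and none higher, at an adjusted p of at most 0.05; beside this, 2.11% of all genes were called lower, and the median log2 fold change was 0.11 against -0.01 over all genes. The member called was Eif2ak2, with signals of 322, 409.7, 441 and 418 in control and 321, 321 and 269.7 after radiation. Its log2 fold change was -0.37 (SE 0.098, limma adjusted p = 0.0376), and the highest irradiated array lay just under the lowest control array. The call was lost in 12 of 18 alternatives, with adjusted p from 0.00569 to 0.716. With the replicate number as a block, the log2 fold change was -0.34 with a limma adjusted p of 0.081. Same-numbered arrays correlated at 0.17 to 0.53 in this comparison, but the labels give no pairing and most other comparisons lacked this. Without control replicate 2, 3 or 4 or any 1 irradiated array the call was also lost. Ifit3, by contrast, spread widely after radiation, with 1594, 1009 and 847 against 865, 919, 1034 and 1368 in control, and the groups overlapped. In the same comparison all 7 neutrophil markers were called higher (median 2.41), 4 of 9 monocyte and macrophage markers were called higher (median 0.44), 2 of 6 alveolar macrophage markers higher and 2 lower, and Klra8 of the natural killer markers lower, and their part in any member's level was not tested.

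Without radiation, SEW lowered 3 of the 34 members and raised none, where 10.8% of all genes were called lower. The median log2 fold change of the members was -0.17 against -0.02 over all genes. Eif2ak2 gave 273, 259.8 and 272 with SEW, all below the 4 control arrays given above, a log2 fold change of -0.53 (SE 0.098, limma adjusted p = 0.00228). Trim25 gave 1486, 1415 and 1427 against 1734, 1658, 1889 and 1696 in control, a log2 fold change of -0.27 (SE 0.065, limma adjusted p = 0.0101). Mx2 gave 8.63, 103 and 87.4 against 109, 151, 162 and 111, a log2 fold change of -1.13 (SE 0.35, limma adjusted p = 0.0361). The first SEW array is far below the rest for Mx2, and without it the value was -0.41 with an adjusted p of 0.243 (range over all alternatives 0.011 to 0.243); without control replicate 2 or 3 the call was lost too. Without fTyS replicate 3, whose spread enters the shared error, 5 members were called lower (10.7% of all genes): the same 3 with Ifit3 at -0.68 and Tap1 at -0.50. The 4 plasma cell markers Jchain, Iglv1, Ighm and Mzb1 were called higher in this comparison. The monocyte markers Ccr2 and Cx3cr1, the dendritic cell marker Tcf4 and the natural killer marker Klra8 were called lower. The mean of all 9 monocyte and macrophage markers tested was 9.05 in control and 8.93 with SEW. It was 8.47 and 8.40 for 5 dendritic cell markers, and 8.10 and 7.72 for 6 natural killer markers. For 3 adipocyte markers it was 9.44 in control (8.49 to 10.36) and 11.39 with SEW (10.42 to 12.13). The part of these cells was not tested.

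With FTY 1 member was called lower than in control, where 2.25% of all genes were called lower: Eif2ak2, with 286, 272 and 294, a log2 fold change of -0.45 (SE 0.098, limma adjusted p = 0.0202). All 3 FTY arrays lay below the 4 control arrays, but the call was lost without control replicate 2 or 3 or any 1 FTY array. The members' median was -0.08. Beside this call, the monocyte markers Ccr2 and Cx3cr1 were called lower (-0.86 and -0.72). The mean of all 9 monocyte and macrophage markers tested was 9.05 in control and 8.88 with FTY. The plasma cell markers Jchain and Iglv1 were called higher (2.46 and 2.48), and the mean of 6 such markers was 9.31 in control and 10.44 with FTY. For 3 adipocyte markers the mean was 9.44 in control (8.49 to 10.36) and 10.87 with FTY (9.63 to 11.56). The part of these cells was not tested. Ifit3 gave 591, 736 and 638 with FTY and 573, 651 and 699.9 with SEW, all below the 4 control arrays, with log2 fold changes of -0.65 and -0.68 and limma adjusted p of 0.165 and 0.0719. Replicates 1 and 2 of fTyS, at 789 and 715, lay below the control arrays as well, and replicate 3 was at 1648.

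With fTyS none of the 34 members was called against control, where 0.178% of all genes were called, and 9 had an unadjusted p under 0.05, as did 15% of all genes. With array weights, which let noisier arrays count less, 4 members were called higher (Igtp, Psmb8, Psmb9 and Tapbp), where 15.1% of all genes were called in either direction. The median log2 fold change was 0.16 with all 3 arrays and -0.04 without replicate 3. The largest values were Igtp at 0.91 (95% confidence interval 0.29 to 1.53), Gbp2 at 0.83 (0.31 to 1.35) and Mx2 at -0.70 (-1.43 to 0.04), with limma adjusted p of 0.174, 0.143 and 0.356. Without replicate 3, Igtp was at 0.36 and Gbp2 at 0.30 (limma adjusted p of 0.34 and 0.203). The 3 comparisons with control share the same 4 control arrays.

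Irradiated lungs given SEW were higher than unirradiated lungs given SEW in 11 of the 34 members, and none was lower. Of all genes, 13.8% were called higher in this comparison, and the median log2 fold change was 0.34 over the members against 0.04 over all genes. The members called were the effectors Ifit1, Ifit3, Mx2, Oasl1, Oasl2, Eif2ak2 and Ifi35, the signalling factor Irf7, the regulators Usp18 and Trim25, and Tapbp. In each of the 11 the 2 groups of 3 arrays did not overlap. Being called favours such separation, so it adds no support, and the share over all genes was not counted. By role, 7 of 16 effectors were called (median 0.49), 2 of 4 sensors and regulators (0.40), 1 of 4 signalling factors (0.06), 1 of 5 antigen processing genes (0.17) and 0 of 5 GTPases (0.12), and the difference between roles was not tested.

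Ifit3 gave signals of 573, 651 and 699.9 with SEW and 1282, 1794 and 1234 with radiation and SEW, a 2.19-fold difference (log2 1.13, SE 0.27, limma adjusted p = 0.00709). The lowest irradiated array was well above the highest unirradiated one. Usp18, the protease that removes Isg15 and dampens interferon receptor signalling, gave 568, 651 and 618 without radiation and 935, 1094 and 859.6 with it (log2 0.64, SE 0.14, limma adjusted p = 0.00467). Ifi35, an interferon-induced leucine zipper protein, gave 2695, 2895 and 2914 without radiation, and with it the close values 3752, 3757 and 3735 (log2 0.40, SE 0.090, limma adjusted p = 0.00536). These 3 genes were the only ones whose calls were kept in all 17 alternatives run for them, with adjusted p up to 0.0383, 0.0271 and 0.0309.

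Ifit1, which binds viral RNA lacking a cap methyl mark, gave 293, 334 and 388 without radiation and 605, 1027 and 584 with it (log2 1.05, SE 0.27, limma adjusted p = 0.011). Irf7 gave 276, 271 and 321 without radiation and 584, 764 and 415 with it (log2 0.94, SE 0.29, limma adjusted p = 0.0308). In both genes radiation with SEW replicate 2 was the highest of the 3. Oasl2 and Oasl1, relatives of the oligoadenylate synthetases, had log2 fold changes of 0.77 and 0.53 (limma adjusted p of 0.028 and 0.0199). Mx2 gave 155, 118 and 134 with radiation, a log2 fold change of 1.17 (limma adjusted p = 0.0362), which became 0.44 without SEW replicate 1. Tapbp and Trim25 had small changes of 0.23 and 0.27.

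The Tapbp call was lost without any 1 of the 6 arrays and the Irf7 call without any but radiation with SEW replicate 3. The count of 11 fell to 5 without SEW replicate 1 or without radiation with SEW replicate 2, and to 7 without radiation with SEW replicate 1. It rose to 16 without fTyS replicate 3 (14.2% of all genes), which added Ifih1, Bst2, Rtp4, Cmpk2 and Tap1 with log2 fold changes of 0.35 to 0.51. Among other genes of the pathway, 4 of 39 other interferon-induced genes were called higher (Oas1a 0.85, Ddx60 0.68, Uba7 0.48 and Trim30a 0.37 in log2) and 2 lower (Isg20 -0.47 and Slfn5 -0.46). Of 12 upstream sensing genes 2 were called higher, the RNA sensors Tlr3 (0.71) and Ddx58 (0.33), and of 16 receptor and JAK-STAT genes 1 was higher (Irf5) and 2 lower (Jak1 and Irf2). None of 14 other class I presentation genes was called. Beside these, 1 of 7 neutrophil markers was called higher (median 1.29), 3 of 9 monocyte and macrophage markers higher (median 0.36), 4 of 6 plasma cell markers lower (median -1.72), 2 of 5 dendritic cell markers higher (Itgae 0.32 and Tcf4 0.24), 2 of 6 alveolar macrophage markers lower (Krt79 -1.23 and Fabp1 -1.35) and 6 of 9 p53 targets higher (median 0.60), and the part of these cells was not tested.

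Irradiated lungs given FTY were higher than unirradiated lungs given FTY in 2 of 34 members, where 9.13% of all genes were called higher, and the median was 0.08. Ifit3 gave 591, 736 and 638 without radiation and 1460.2, 1149 and 1189 with it (log2 0.93, SE 0.27, limma adjusted p = 0.0252), a call lost without FTY replicate 1 or 3 or radiation with FTY replicate 1. Ifi35 gave 2897, 3053 and 2722 without radiation and 3559.7, 4007 and 3629 with it (log2 0.37, SE 0.090, limma adjusted p = 0.0122), a call lost without radiation with FTY replicate 2. The groups did not overlap in either gene, and the share over all genes was not counted. Beside these 2 genes, 6 of 7 neutrophil markers and 5 of 9 monocyte and macrophage markers were called higher (medians 1.39 and 0.65). The alveolar macrophage marker Krt79 and the natural killer marker Prf1 were called lower. The mean of 6 alveolar macrophage markers was 9.05 with FTY and 8.97 with radiation and FTY, and that of 6 natural killer markers 7.74 and 7.68. The part of these cells was not tested.

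Irradiated lungs given fTyS differed from unirradiated lungs given fTyS in none of the 34 members, where 0.456% of all genes were called, and 8 members had an unadjusted p under 0.05, as did 13.3% of all genes. With array weights, 6 members were called higher and 8 lower, where 28.8% of all genes were called in either direction, and the 8 lower were GTPases or antigen processing genes or Trim25. The largest log2 fold changes were -0.85 for Igtp, -0.69 for Gbp2 and 0.59 for Ifit3 (limma adjusted p of 0.235, 0.253 and 0.347). Without fTyS replicate 3 the median moved from 0.03 to 0.21, 13 members had an unadjusted p under 0.05 (16.4% of all genes) and none was called. Without both that array and control replicate 4, 2 members were called higher, where 0.564% of all genes were: Ifit3 at 0.96 and Xaf1, a proapoptotic interferon-induced gene, at 0.65 (limma adjusted p of 0.0475 and 0.0329). Ifit3 gave 1334, 1902 and 1265 with radiation and fTyS, all above fTyS replicates 1 and 2 and on both sides of replicate 3.

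**Figure D4:**
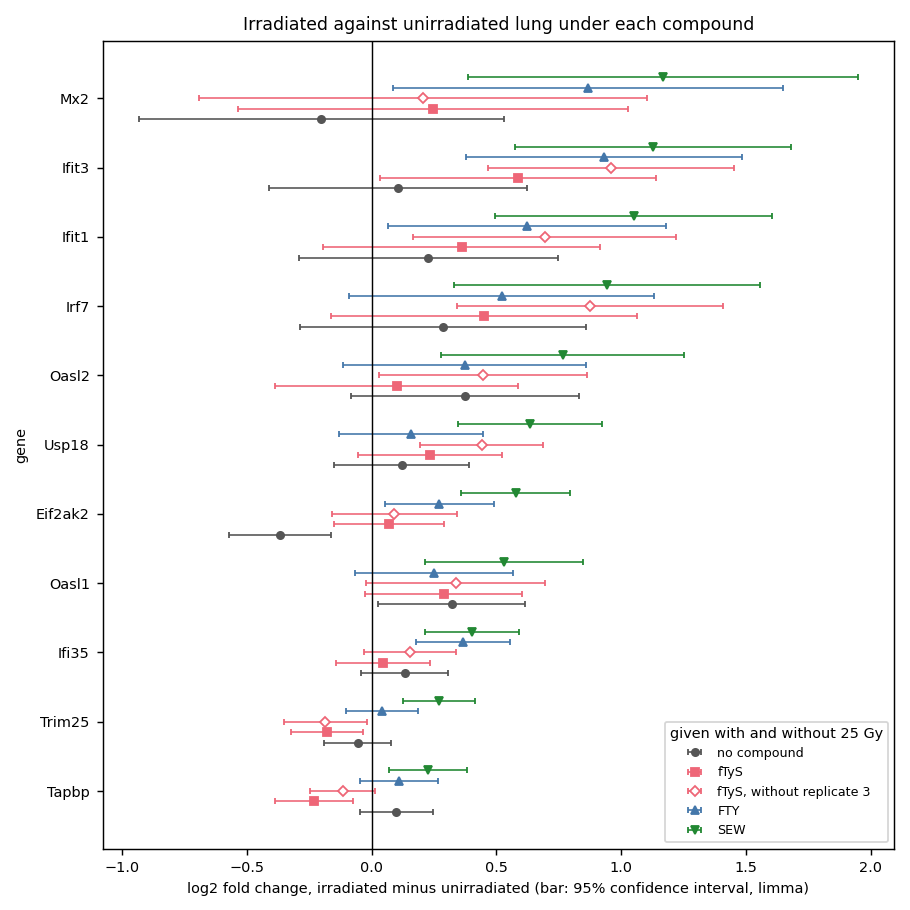
Log2 fold change of irradiated over unirradiated lung (horizontal axis, bars are 95% confidence intervals from limma) without a compound and with fTyS, FTY or SEW, for the 11 members called with SEW (vertical axis), with fTyS also shown without replicate 3. With SEW all 11 intervals lie above 0, which follows from showing the members called there. For Ifit3 the estimates are 1.13 with SEW, 0.93 with FTY, 0.96 with fTyS without replicate 3 and 0.10 without a compound. No Ifit3 interaction was called with all arrays. The Ifit3 control mean is 10.03, or 9.90 without control replicate 4, and the mean after radiation alone is 10.14.

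The difference between these radiation responses was tested as an interaction against the response without a compound. With SEW, 2 of 34 members had a more positive response, where 10.5% of all genes did: Eif2ak2 (log2 0.94, SE 0.14, limma adjusted p = 0.000857) and Trim25 (0.33, SE 0.094, limma adjusted p = 0.0262). Without fTyS replicate 3, 4 members did (10.9% of all genes), with Ifit3 at 1.02 and Usp18 at 0.51 added. The count fell to 1 without control replicate 3, radiation replicate 3, or radiation with SEW replicate 2 or 3, and the Trim25 call was also lost without SEW replicate 2 or 3 or radiation replicate 1. With FTY, Eif2ak2 alone was called (0.64, SE 0.14, limma adjusted p = 0.0147), where 4.77% of all genes were called higher. The Eif2ak2 response itself was -0.37 without a compound, 0.58 with SEW and 0.27 with FTY, so its direction differed. With fTyS none was called, where 1.35% of all genes were, and 5 had an unadjusted p under 0.05, as did 15.1% of all genes. The largest values were -0.96 for Igtp, -0.79 for Gbp2 and -0.63 for Rsad2, and all include fTyS replicate 3. Without that array the members' median moved from -0.12 to 0.09. Positive values rose from 11 to 21 of 34 members, and none was called, where 0.881% of all genes were. These interactions share the control and radiation arrays.

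Eif2ak2 was the member called most often, and its probe sets disagree. The probe set used here, 1422005_at, was low in SEW, FTY and radiation and higher in control and in radiation with SEW. Its other 2 probe sets, 1422006_at and 1440866_at, changed by -0.22 and -0.17 in log2 between radiation with SEW and SEW, where 1422005_at changed by 0.58. Between SEW and control they changed by 0.09 and 0.02, where 1422005_at changed by -0.53. With the mean of the 3 probe sets, every Eif2ak2 call was lost. For Ifi35, 1445897_s_at (the one used) and 1459151_x_at changed by 0.40 and 0.53 between radiation with SEW and SEW, and 1424617_at by 0.11. For Tapbp, 1421812_at (the one used) changed by 0.23 there and by 0.34 between fTyS and SEW, where 1450378_at changed by -0.05 in both. For Trim25, 1419879_s_at (the one used), 1425974_a_at and 1426415_a_at changed by 0.27, 0.14 and 0.11 between radiation with SEW and SEW. Between radiation and control they changed by -0.06, -0.08 and 0.31. Ifit1, Ifit3, Irf7, Usp18, Mx2, Oasl1 and Oasl2 each had 1 probe set.

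**Figure D5:**
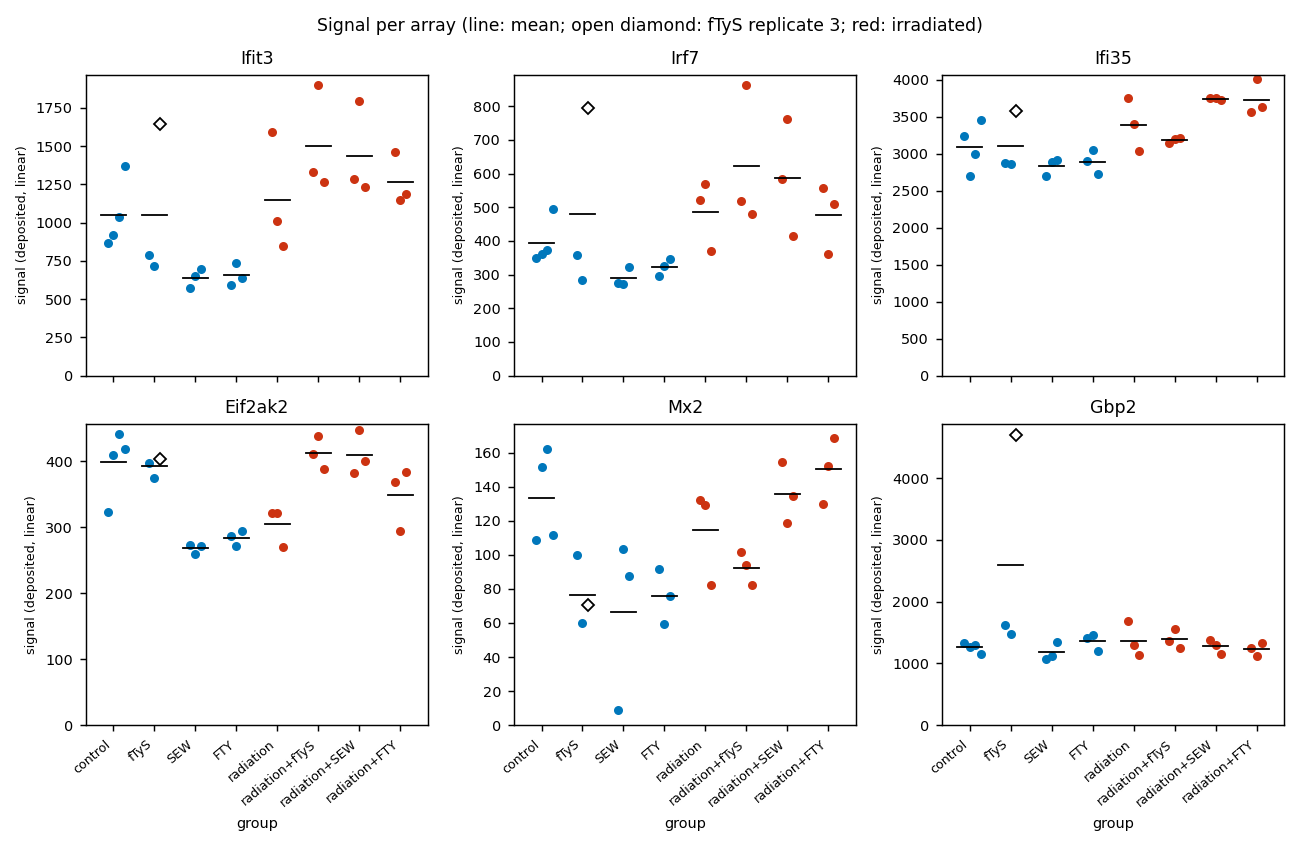
Deposited signal (vertical axes, linear from 0) of 6 members on each array by group (horizontal axes), blue without and red with radiation, with lines for group means and an open diamond for fTyS replicate 3. Ifit3 is low on all SEW and FTY arrays and higher on all irradiated SEW and FTY arrays, and Gbp2 is at 4696 on fTyS replicate 3 and at most 1680.3 on the other 24 arrays.

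With SEW, Eif2ak2 was called higher than after radiation alone, with 381, 447 and 399.6 against 321, 321 and 269.7 (log2 0.41, SE 0.10, limma adjusted p = 0.0418), where 1.38% of all genes were called higher, and the call was lost without any 1 array of these 2 groups. With fTyS none of 34 was called, where 0.858% of all genes were, and 1 had an unadjusted p under 0.05 (12.4% of all genes did): Eif2ak2, with 410.2, 438 and 389 and a log2 fold change of 0.42 (limma adjusted p = 0.0598). With FTY none was called, where 3.02% of all genes were, and none had an unadjusted p under 0.05, whereas 23.3% of all genes did. The largest values with FTY were 0.39 for Rsad2 (viperin, an antiviral radical enzyme; 95% confidence interval -0.30 to 1.07), 0.37 for Mx2 (-0.42 to 1.15) and -0.27 for Xaf1 (-0.69 to 0.16). The members' medians were 0.07 with fTyS, 0.06 with SEW and -0.07 with FTY, and the 3 comparisons share the radiation arrays. In the same comparisons neutrophil markers were called lower, 7 of 7 with SEW (median -2.16), 5 of 7 with fTyS (-1.76) and 3 of 7 with FTY (-0.95). The monocyte markers Ccr2 and Itgam were called lower with SEW (-1.01 and -1.23). The mean of all 9 monocyte and macrophage markers tested was 9.66 after radiation alone and 9.39 with radiation and SEW. The part of these cells was not tested.

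The 3 compounds were given at the same dose and schedule, and were compared in 6 pairs, 3 without and 3 with radiation, and calls are given with p adjusted over all genes within each pair and over the 6 pairs together. Without radiation, 5 of 34 members were called higher with fTyS than with SEW, where 1.28% of all genes were. Tap1 gave 694, 546 and 1636 with fTyS against 348, 389.9 and 465 with SEW (log2 1.07, SE 0.24, limma adjusted p = 0.0317), Psmb9 differed by 0.79, Eif2ak2 by 0.52, Tapbp by 0.34 and Trim25 by 0.29. The groups did not overlap in any of the 5, which being called favours, and the share over all genes was not counted. Without fTyS replicate 3, 2 members were called (1.89% of all genes), Tap1 at 0.61 and Eif2ak2 at 0.50, and none was called without fTyS replicate 1 or without any 1 SEW array. With p adjusted over the 6 pairs together, Eif2ak2 was the 1 member called (limma adjusted p = 0.0475), where 0.402% of all genes were, and without fTyS replicate 3 the smallest such p of a member was 0.0726.

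FTY720 and its phosphonate analogue were not called apart in any of the 34 members without radiation, where 0% of all genes were called, and 7 had an unadjusted p under 0.05, as did 5.94% of all genes. The largest differences, fTyS over FTY, were 0.90 for Rsad2 (95% confidence interval 0.21 to 1.59), 0.72 for Gbp2 (0.16 to 1.28) and 0.63 for Gbp3 (0.04 to 1.22), and the median of the members moved from 0.24 to 0.02 without fTyS replicate 3. FTY and SEW were not called apart either, with 0% of all genes called and 4 members at an unadjusted p under 0.05, where 9.11% of all genes were. The largest differences, FTY over SEW, were 0.52 for Tap1 (0.01 to 1.02), 0.46 for Psmb9 (0.08 to 0.85) and 0.43 for Mx2 (-0.35 to 1.21). These intervals leave room for differences of more than 0.8 in log2, so the test does not show that the compounds act alike. Over the 6 pairs together, the smallest adjusted p of a member was 0.0823 for fTyS against FTY and 0.206 for FTY against SEW.

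With radiation and all arrays in the fit, no member was called between any 2 compounds, within a pair or over the 6 pairs together. For fTyS against SEW 0% of all genes were called and 2 members had an unadjusted p under 0.05 (10.9% of all genes), with Mx2 at -0.48 (95% confidence interval -1.26 to 0.30), Psmb8 at 0.29 (-0.14 to 0.71) and Gbp3 at 0.24 (-0.35 to 0.84) as the largest. For FTY against SEW 0% of all genes were called and 1 member had an unadjusted p under 0.05 (8.01% of all genes), with Ifit1 at -0.40 (-0.96 to 0.16), Xaf1 at -0.32 (-0.74 to 0.11) and Oasl2 at -0.28 (-0.77 to 0.20). For fTyS against FTY 3.95% of all genes were called and 4 members had an unadjusted p under 0.05 (20.8% of all genes), with Mx2 at -0.61 (-1.39 to 0.17), Xaf1 at 0.52 (0.09 to 0.94) and Gbp3 at 0.43 (-0.17 to 1.02). Without fTyS replicate 3, which is in neither group but in the shared error, Irf9, the DNA-binding member of the type I complex, and Xaf1 were called higher with fTyS than with FTY after radiation (1.99% of all genes), at 0.42 and 0.52. Xaf1 gave 1108, 1066 and 882 with fTyS and 718, 664 and 727 with FTY, and the 2 groups did not overlap.

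The remaining 21 of the 34 tested members (61.8%) were called in none of the 19 comparisons with all arrays in the fit, close to the 64.6% of all genes called in none. They were all 5 GTPases, 9 of 16 effectors, 3 of 4 signalling factors (Irf1, Irf9 and Stat2), 2 of 4 sensors and regulators (Ifih1 and Zbp1) and 2 of 5 antigen processing genes (Psmb8 and Tap2). Rsad2 spread widely inside groups, with 351, 1004 and 457 with SEW and 838, 577 and 1043 with radiation and FTY. Irf1, the factor that carries much of the interferon gamma response, ranged from 1642 to 2533 on 24 arrays and reached 3524 on fTyS replicate 3. Dhx58, not tested, gave 56.3, 47.2, 59.4 and 90.3 in control, 34.1, 53.9 and 50.8 with SEW and 85.1, 112 and 67.3 with radiation and SEW, and its highest signal was 123 on radiation with fTyS replicate 2.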

How the data were processed

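Total RNA (6 µg) from each of 25 lungs was labelled with biotin and hybridised to an Affymetrix mouse array. The authors deposited 1 linear signal intensity per probe set and array, made with GCOS per the submitters' processing notes; its version, summary method and scaling target are not given in the sources used here. The pseudocount of 16 shrinks fold changes of dim genes. Of 45101 probe sets, the 34945 that carry 1 symbol were used, with symbols updated through Entrez gene identifiers. Each of 18193 genes was represented by its brightest probe set, and genes with a mean log2(signal + 16) at or below 6.49, the 40th percentile of probe sets, were left out, leaving 12937.

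A linear model with limma 3.58.1 under R 4.3.3 (eBayes with trend) was fitted to all 8 groups and, with 17 residual degrees of freedom, gave 19 two-sided comparisons, Benjamini-Hochberg adjusted over all genes within each comparison. A gene was called at an adjusted p of at most 0.05. The script was tested on simulated data. Precision is limited by the few arrays per group. The members and all gene lists were chosen with earlier results of these data known; the p53 targets and the leaving out of control replicate 4 together with fTyS replicate 3 were added after the data were seen. Named were all members called, the 3 largest changes where none was called, and the 10 largest differences on fTyS replicate 3. Same-numbered arrays deviated together (correlation over 0.1 in all 3 pairs) in 5 of 16 comparisons. These were fTyS, or radiation, against control, radiation with fTyS against radiation or fTyS, and FTY against SEW. In fTyS against SEW the correlations ran from -0.81 to -0.36, and the labels give no pairing.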

Additional observations from a re-analysis of the deposited data

Results flagged for a closer look

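In 3 cases the response to radiation with a compound differed from that without a compound, by limma's test of the difference itself. For Eif2ak2 the signed response was more positive by 0.94 in log2 with SEW and by 0.64 with FTY. It was -0.37 without a compound, 0.58 with SEW and 0.27 with FTY, so its direction differed. For Trim25 the response was more positive by 0.33 with SEW (-0.06 without a compound and 0.27 with SEW). Of all genes, 10.5% were called higher in this test with SEW and 4.77% with FTY, against 5.88% and 2.94% of the members tested. All 3 calls were lost with the mean of all probe sets of the gene, and the cause was not tested. None of the 35 members had a control array set apart from the other 3 by Dixon's criterion.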

How the results depend on the processing

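Of 27 calls of a member in a comparison, 3 were kept in every alternative, 24 were lost in at least 1 and 0 changed sign; the causes were not tested. Counts of members called are given by alternative for the comparisons where they moved by over 1.5 times. With array weights they were, with the share of all genes called in parentheses, 4 for fTyS against control (15.1%), 5 for SEW against control (34.2%), 2 for radiation against control (8.8%), 1 for radiation with fTyS against radiation (9.43%), 14 for radiation with fTyS against fTyS (28.8%), 19 for radiation with SEW against SEW (36.2%), 4 for radiation with FTY against FTY (20.1%), 11, 1 and 3 for fTyS against SEW, fTyS against FTY and FTY against SEW (34.6%, 6.39% and 6.25%), 1 each for radiation with fTyS against radiation with SEW or FTY (8.51% and 19.3%), and 3, 4 and 2 for the interactions with fTyS, SEW and FTY (16%, 26% and 13.5%). With the mean of all probe sets they were 1 for SEW against control and 0 for FTY or radiation against control, radiation with SEW against radiation, fTyS against SEW, and the interactions with SEW and FTY. With only the arrays compared they were 0 for FTY or radiation against control, radiation with SEW against radiation, fTyS against SEW and the FTY interaction. Median centring gave 0 for radiation against control and for radiation with SEW against radiation, 3 for fTyS against SEW and 1 for the SEW interaction; quantile normalization gave 0 for radiation with SEW against radiation and 1 for fTyS against SEW; no filter gave 0 for radiation against control and for radiation with SEW against radiation. The replicate block gave 0 for both of these, 2 for SEW against control and 10 for radiation with SEW against SEW, and outside the 5 comparisons named it shares only a number: 7 of 25 arrays correlated best with their own number. Without fTyS replicate 3 and control replicate 4 together the counts were 0 for radiation against control, 4 for SEW against control, 16 for radiation with SEW against SEW, 2 for fTyS against SEW, 4 for the SEW interaction, and 2 each for radiation with fTyS against fTyS and against radiation with FTY. Leaving out 1 array gave 2 to 5 for SEW against control (5 without fTyS replicate 3), 0 to 1 for FTY or radiation against control and for radiation with SEW against radiation, 5 to 16 for radiation with SEW against SEW, 1 to 2 for radiation with FTY against FTY, 0 to 7 for fTyS against SEW, 0 to 2 for radiation with fTyS against radiation with FTY (2 without fTyS replicate 3), 0 to 1 for the fTyS interaction (1 without control replicate 1), 1 to 4 for the SEW interaction, 1 to 1 for the FTY interaction, and 0 to 0 for the others. The pseudocounts of 1 and 64 moved no count by over 1.5 times.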

Other observations

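Genes of the pathway that are not members were counted by list in 3 further comparisons with limma. In SEW against control, where 14.6% of all genes were called, 5 of 16 receptor and JAK-STAT genes were called lower (among them Irf8 at -0.46 and Irf5 at -0.38 in log2) and 1 higher (Jak1 at 0.30). The sensor Tlr3 was lower (-0.39, 1 of 12 upstream sensing genes), 1 of 39 other interferon-induced genes was higher (Isg20 at 0.37) and 2 lower (Ddx60 at -0.67 and Uba7 at -0.38), and 1 of 14 other class I presentation genes was higher (Calr at 0.29).

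In radiation against control, where 4.4% of all genes were called, 3 of the 39 other interferon-induced genes were higher (Ifitm1 at 0.75, Trim30a at 0.42 and Ifitm2 at 0.35) and 1 lower (Slfn5 at -0.51). The sensing adaptors Myd88 and Sting1 were higher at 0.39 and 0.34 (2 of 12), as were Socs3, a cytokine signalling inhibitor, and Irf5 at 0.49 and 0.34 (2 of 16). None of the 14 class I presentation genes was called.

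In radiation with FTY against FTY, where 14.1% of all genes were called, 3 of 12 sensing genes were higher (Mavs at 0.48, Ikbke at 0.41 and Tlr3 at 0.28) and 1 lower (Tbk1 at -0.26), and 3 of 16 receptor and JAK-STAT genes were higher (Irf5 at 0.35, Tyk2 at 0.30 and Ifnlr1 at 0.29). Of the 39 other interferon-induced genes 1 was higher (Ifi30 at 0.29) and 1 lower (Slfn5 at -0.49). The interleukin Il15 was higher (0.42, 1 of 2 interleukins tested), and none of the 14 class I presentation genes was called.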
